A study of Mus musculus with 840 samples.

Results

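The cells described here are mouse mammary cells that carried an activated Notch1 receptor, seen as nuclear GFP, and still sat in the basal gate of the sorter (low EpCAM, high CD49f). They came from female SMACreERT2/N1ICD mice, in which the smooth muscle actin promoter drives a tamoxifen-inducible Cre, and from K5CreERT2/N1ICD mice, in which the keratin 5 promoter does so. In both lines Cre switches on the Rosa-N1ICD-IRES-nGFP allele, which makes the intracellular domain of Notch1 together with nuclear GFP. All mice were given tamoxifen before puberty and their glands were taken 1 to 6 weeks later, so the GFP- cells are neighbours without the reporter from induced mice and not cells of untreated animals. Blood and endothelial cells marked by CD45, Ter119 or CD31, and dead cells marked by DAPI, had been gated away before single cells were index-sorted into wells and sequenced with Smart-seq2, a full-length method that counts reads and not molecules.

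A member was any cell annotated as basal and GFP+ that passed the filters on depth, genes, mitochondrial reads, Epcam and Dcpp1 listed in the processing notes. Of the cells so sorted 76.2% were kept, and they made up 17.9% of the 624 kept cells of all gates. The kept cells came from 6 plates, each with its own mice. SMACre plate 1 (1 week of chase, 2 mice) gave 51 cells, SMACre plates 2 and 3 (3 weeks, 2 mice each) gave 6 and 28, and SMACre plate 4 (4 weeks, 1 mouse) gave 16. K5Cre plates G and L (3 weeks, 2 mice each) gave 5 and 6. The 6-week SMACre plate 5 held luminal cells only, and another 3-week SMACre plate, plate E, held no basal GFP+ cell but 6 basal GFP- cells. The chase times come from the plate annotation; plate L is called a 6-week plate in its sample names and a 3-week plate in its details, and was taken as 3 weeks. The comparison groups were intermediate GFP+ (39.1% of kept cells), luminal GFP+ (30.1%), luminal GFP- (51 cells) and basal GFP- cells (17, from plates E, G and L alone).

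In the mammary epithelium, basal cells (myoepithelial cells) lie against the basement membrane, contract to eject milk, and are defined by keratins 5 and 14, smooth muscle actin and the transcription factor p63. Luminal cells line the duct and carry keratins 8 and 18. Notch is a receptor that is cut when a neighbouring cell presents a Delta or Jagged ligand; its intracellular domain then joins Rbpj in the nucleus to switch on Hes and Hey genes, and in this tissue Notch activity is known as a signal for luminal fate.

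Basal GFP+ cells had a median of 481832.5 counts (109841 to 2213770) and 5611.5 genes detected (1548 to 9907). Sequencing depth followed the batch. The median over all kept cells was 348459 counts in batch 1 (plates 1, 2 and 5), 411940 in batch 2 (plates 3 and 4) and 1499629.5 in batch 3 (plates E, G and L). All K5Cre cells were in batch 3 and all SMACre basal GFP+ cells in batches 1 and 2, so a difference in level between the Cre lines cannot be told apart from a batch difference. Cells were therefore summed by plate, gate and GFP into 33 sums, of which 6 were of basal GFP+ cells with 2412014 to 26109443 counts. Gates were compared in fits with plate as a block. Levels are given as CPM (counts per 1000000 counts on genes), in the order of plates 1, 2, 3, 4, G and L. Separate plates hold separate mice, but 5 of the 6 pool cells of a pair of mice. P-values of the gate fits therefore measure the scatter of sums that plate and group leave, taken over all groups. They do not measure the spread between single mice.

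The label of these cells was checked on the 7 basal markers Krt5, Krt14, Acta2, Trp63, Sparc, Cxcl14 and Mylk after each cell was thinned to 100000 reads. A read of 6 or all 7 of them was found in 85.7% of basal GFP+, 70.6% of basal GFP-, 47.5% of intermediate GFP+, 2.13% of luminal GFP+ and 0 of 51 luminal GFP- cells. At the other end, 96.3% of luminal GFP+ and 94.1% of luminal GFP- cells had at most 3 of the 7, as had 9 basal GFP+ cells (8.04%). By plate, 44 of 51, 6 of 6, 27 of 28, 15 of 16, 2 of 5 and 2 of 6 basal GFP+ cells had 6 or 7 markers. Basal GFP- cells had them in 6 of 6 on plate E, 4 of 6 on plate G and 2 of 5 on plate L. The pooled basal GFP+ share is therefore not higher on the plates that hold both groups, G and L. Intermediate GFP+ cells had them in 1 of 4, 12 of 16, 19 of 21 and 16 of 19 cells on plates 1 to 4. On plates E, G and L, which gave most intermediate cells, it was 28 of 60, 28 of 63 and 12 of 61. Within plates the intermediate share was below the basal GFP+ share on plates 1 to 4 and L and above it on plate G. The pooled gap between these gates thus also holds a difference between plates. The label held on the 4 SMACre plates and in fewer of the 11 K5Cre cells, 4 of which were also high in sebaceous markers.

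Some basal GFP+ cells stood apart from the rest. On plate 1, 3 cells had 4250, 10300 and 11700 CPM of the endothelial markers, and 2 cells had pericyte-type reads (Rgs5 at 5520 CPM in one, Des at 1310 CPM in the other) together with high Notch3 and Heyl. These 5 cells had the minimum of 2 Epcam reads and at most 1 keratin read, and a cell of plate 4 had no keratin read, so 6 cells low in keratins were left out in an alternative. Another 4 cells, 1 on plate G and 3 on plate L, had over 2000 CPM of the sebaceous and hair follicle markers, with Scd1, the stearoyl-CoA desaturase of lipid synthesis, between 2470 and 16000 CPM. Without these 10 cells, 44 of 46 basal GFP+ cells on plate 1, 15 of 15 on plate 4, 2 of 4 on plate G and 2 of 3 on plate L had 6 or 7 basal markers. No kept cell had the same counts as another, although 444 of 624 had an index pair that was also used in another library pool.

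Among the members themselves, the summed level of the 7 markers ran from 590 to 31300 CPM per cell with a median of 11600 (quartiles 7940 and 15200). Plate medians were 11400, 12100, 12100, 17700, 5900 and 3240 CPM. The K5Cre cells of plates G and L lay lowest and the 4-week SMACre cells of plate 4 highest. By exon length, the genes with the highest mean level over the 6 sums were Apoe, the lipid carrier apolipoprotein E, at 23698 TPM (CPM divided by exon length and scaled to the same total) and Krt14 at 9163 TPM. The immediate early gene Fos followed at 8258 TPM, Krt17, a keratin of basal and stressed epithelium, at 7381, beta-actin (Actb) at 5848 and Acta2 at 5046 TPM.

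The main question of the gates is what separates Notch-activated cells that were still basal from those that had reached the luminal gate. Between the luminal GFP+ and basal GFP+ sums of the same plates, 335 of 20230 genes passed (1.66% of all genes tested), 0.811% higher in luminal cells and 0.845% lower (edgeR's quasi-likelihood test with plate as a block, Benjamini-Hochberg adjusted p under 0.05). The median log2 difference over all genes was 0.07. Genes called lower in the luminal gate included 8 of 15 contractile genes, 10 of 20 matrix and basement membrane genes and the Notch ligands Dll1 and Jag2. Those called higher included 3 of 4 keratins of simple epithelium, 11 of 18 luminal progenitor genes and 2 of 10 genes of hormone receptor luminal cells. In sums of cells, fewer cells with a transcript and less RNA per cell cannot be told apart, so shares of cells with a read are given for leading genes. Such shares pool plates, and basal GFP- cells come from plates E, G and L alone.

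Of the 7 basal markers, 6 were called lower in luminal GFP+ cells and none higher (median log2 difference -5.54). Krt14, the basal type I keratin (chromosome 11, 100203162 to 100207548 on GRCm38, minus strand), stood at 3720, 5790, 5010, 4590, 3580 and 1600 CPM in basal GFP+ sums and at 10.4 to 451 CPM in the 7 luminal GFP+ sums. The groups did not overlap, and the fitted log2 difference was -4.46 ± 1.07 (SE; adjusted p = 0.0271, lower on 6 of 6 plates). This call was lost without plate 2 or plate 3, with cells summed by Cre line and chase in place of plate, and with the stricter filter of at most 1 Dcpp1 read per cell, the highest adjusted p being 0.105. Sparc, a matrix-binding glycoprotein, stood at 2140, 1970, 2200, 1870, 590 and 519 CPM against 0.136 to 173.5 CPM, with a difference of -7.33 ± 0.94 (adjusted p = 6.59e-05, edgeR). It was the most steeply lower of the 7 and its groups did not overlap either.

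Of the 6 basal keratins, Krt14 was the 1 called. Krt5, the partner of Krt14 in the basal keratin filament, was the member of the 7 that missed the threshold. It stood at 869, 2070, 898, 1200 and 628 CPM on plates 1 to G and at 1.12 CPM on plate L, where 0 of 6 cells had a Krt5 read and 6 of 6 had Krt14 and Trp63 reads. Luminal GFP+ sums ranged from 0.106 to 169.4 CPM, so that plate L alone fell within the luminal range, and the log2 difference was -5.09 ± 1.68 (adjusted p = 0.136, edgeR, lower on 6 of 6 plates). Of all basal GFP+ cells, 87.5% had a Krt5 read after thinning, against 77.9% of intermediate GFP+, 12.2% of luminal GFP+ and 9.8% of luminal GFP- cells.

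Trp63, the p63 transcription factor of basal cells, stood at 135.2, 110, 123.8, 166.7, 497 and 216.7 CPM and at no more than 13.5 CPM in any luminal GFP+ sum (-5.54 ± 1.17, adjusted p = 0.0107, edgeR). Here the K5Cre sums were the highest of the 6. The other basal transcription factors moved less uniformly: Mef2c, a partner of myocardin in muscle genes, was called lower (-9.21 ± 2.25, adjusted p = 0.031, lost in 8 of 18 alternatives), but it had at most 37.6 CPM in any basal GFP+ sum, and plate 1 went from 23.5 to 5.78 CPM without its cells low in keratins. Snai2, a repressor of epithelial genes, was at -4.38 ± 1.32 and missed the threshold (adjusted p = 0.0962). In all, 2 of 12 basal transcription factors were called lower and none higher.

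Contractile genes of myoepithelium were called in one direction only. Of 15 tested, 8 were lower in luminal GFP+ cells and none was higher (median log2 difference -6.03). The 5 pericyte markers tested, of a cell type that also contracts, had a median of -3.50 with 5 of 5 below 0 and none called. Acta2, smooth muscle actin (chromosome 19, 34241090 to 34255590), stood at 3030, 3130, 2620, 8000, 506.1 and 325 CPM in basal GFP+ sums and at 0.106 to 471 CPM in luminal GFP+ sums. Plate L lay inside that luminal range and the other 5 above it, and the fitted difference was -6.03 ± 1.19 (adjusted p = 0.00568, edgeR). An Acta2 read was found in 90.2% of basal GFP+, 60.2% of intermediate GFP+, 28.2% of luminal GFP+ and 13.7% of luminal GFP- cells.

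Calponin 1 (Cnn1), which binds actin and damps contraction, stood at 332, 544, 554, 1170, 22.1 and 3.96 CPM, and Myh11, a myosin heavy chain of smooth muscle, at 575, 396, 528, 721.3, 3.52 and 3.66 CPM. Both were high on all SMACre plates and low on both K5Cre plates, while basal GFP- sums of plates G and L held 454 and 49.6 CPM of Cnn1 and 701.3 and 135.1 CPM of Myh11. Their differences from luminal GFP+ were -7.31 ± 1.35 (adjusted p = 0.00339) and -7.01 ± 1.46 (adjusted p = 0.00889, edgeR); the Myh11 call was lost without plate 3, in the pairwise fit on these groups alone and with at most 1 Dcpp1 read. The regulatory light chain Myl9, at 25.6 to 1240 CPM against at most 42.3 CPM, differed by -7.34 ± 1.05 (adjusted p = 0.000202). Myosin light chain kinase (Mylk), Tagln, Actg2 and smoothelin (Smtn) were the other called genes, with Smtn the smallest at -1.95 ± 0.50 (adjusted p = 0.0395, lost in 9 of 19 alternatives). The oxytocin receptor gene Oxtr, which triggers the contraction, was at -3.58 ± 1.61 and did not pass (adjusted p = 0.328); its basal GFP+ values were 610, 801, 662, 207.5, 75.2 and 9.45 CPM. Tropomyosin 1 (Tpm1), a filament protein found in most cells, differed by -0.63 ± 0.34 (adjusted p = 0.451).

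Of 20 tested matrix and basement membrane genes, 10 were lower and none was higher in luminal GFP+ cells (median log2 difference -2.99). Fibroblast markers, several of them matrix genes, had a median of -5.09 with 7 of 7 below 0 and 1 called, and endothelial markers -5.02 with 7 of 7 below 0 and none called. Hspg2, the basement membrane proteoglycan perlecan, stood at 312, 364, 370, 288.4, 46.9 and 228.4 CPM, against 6.56 to 59.4 CPM, and differed by -3.12 ± 0.49 (adjusted p = 0.000721, edgeR). Dystonin (Dst), which ties keratin filaments to hemidesmosomes, stood at 1280, 1410, 1430, 483, 703.9 and 610 CPM against 154.5 to 354 CPM, without overlap (-2.01 ± 0.32, adjusted p = 0.000764). Both differed by less than Sparc and with smaller errors, and the Hspg2 groups overlapped through plate G alone. Collagen IV (Col4a1, -3.55 ± 0.81, adjusted p = 0.0187), collagen XVII of the hemidesmosome (Col17a1, -4.93 ± 1.24, adjusted p = 0.0364) and laminin subunits Lama1 and Lamb1 also passed, each with its call lost in 4 to 8 of 19 alternatives. In contrast, Itgb4, the laminin receptor subunit of the hemidesmosome, had 85.7 to 314 CPM in basal and 68.1 to 315 CPM in luminal GFP+ sums (-0.26 ± 0.47, adjusted p = 0.904).

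Of the 12 genes with the steepest falls by the naming rule, most were not on any list. The protocadherin gene Pcdh7, a cell adhesion molecule, was highest in rank: it stood at 53.5, 65.9, 75.2, 42.7, 13.2 and 46.3 CPM and at no more than 0.188 CPM in a luminal GFP+ sum (-10.39 ± 1.05, adjusted p = 3.62e-06). Clmp, a junctional adhesion protein, and Npr1, the receptor for atrial natriuretic peptide, had at most 140 and 60.1 CPM and differed by -10.25 ± 1.54 and -10.05 ± 1.23 (adjusted p = 0.0012 and 4.11e-05). All 3 calls held in 19 of 19 alternatives. Where luminal sums have almost no reads, a fitted difference depends on the prior count and is not a bound. Col5a1, Dll1, Aff3, Rgl1, Tenm2, Chst11, Gypc and the small matrix proteoglycan gene Bgn were also among the 12; of these, Bgn, Chst11, Gypc and Aff3 lost their calls in 8, 6, 5 and 2 of 19 alternatives.

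Igfbp3, Apoe and Cxcl14 encode secreted proteins and were lower in luminal GFP+ cells. Igfbp3, which binds and carries insulin-like growth factors, stood at 748, 1650, 1290, 1950, 105.5 and 335 CPM and at a median of 0.986 CPM in luminal GFP+ sums (-7.61 ± 1.11, adjusted p = 0.000262, edgeR). Apoe stood at 11300, 16700, 12400, 16800, 9280 and 9390 CPM against 69 to 1520 CPM (-5.06 ± 0.81, adjusted p = 0.000819). Cxcl14, a chemokine of epithelia and 1 of the 7 markers, differed by -5.36 ± 1.04 (adjusted p = 0.00507). These 3 genes were separated completely between the gates except that the lowest Igfbp3 sum (plate G) lay below the highest luminal sum of 163.3 CPM. Of the 24 growth factor genes, 2 were higher in luminal cells, the neuregulin receptor Erbb3 (2.52 ± 0.50, adjusted p = 0.00668) and the EGF-family ligand Btc (8.51, adjusted p = 0.0232, lost in 9 of 19 alternatives), and Igfbp3 was the 1 lower. Of the 14 chemokine and defence genes, 2 were higher and 2 lower.

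Notch pathway genes are given by role, and no test compared the roles. Of 9 receptors and ligands tested, the ligands Dll1 and Jag2 were lower in luminal GFP+ cells and none was higher (median log2 difference -2.64). Dll1, a Delta-type ligand (chromosome 17, 15367354 to 15376872), stood at 117.3, 90.8, 194.7, 29.1, 43.8 and 48.1 CPM in basal GFP+ sums and at no more than 3.92 CPM in luminal GFP+ sums (-9.16 ± 1.14, adjusted p = 4.13e-05, called in 19 of 19 alternatives). Every basal GFP+ sum lay above every luminal one, and basal GFP- sums of plates E, G and L had 175.2, 417 and 47.7 CPM. A Dll1 read was found in 50.9% of basal GFP+, 64.7% of basal GFP-, 37.7% of intermediate GFP+, 1.06% of luminal GFP+ and 0 of 51 luminal GFP- cells. Jag2, a Jagged-type ligand, stood at 76.6, 99.5, 52.5, 90.5, 68.1 and 32.6 CPM against at most 2.99 CPM (-6.93 ± 1.35, adjusted p = 0.00511; adjusted p = 0.0557 with Cre line and chase as units). Jag1 was at -2.64 ± 0.88 and lower on 5 of 6 plates, and it missed the threshold (adjusted p = 0.142).

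Receptor levels overlapped between these gates. Notch1 had 478, 168.3, 369, 352, 183.5 and 307 CPM in basal GFP+ and 97 to 855 CPM in luminal GFP+ sums (0.13 ± 0.46, adjusted p = 0.972); its reads may come from the endogenous gene or from the transgene, which the gene counts cannot separate. Notch3, a receptor and itself a Notch target, stood at 181.2, 26.5, 19.2, 113.8, 7.47 and 23.6 CPM against 87.3 to 284.9 CPM (1.66 ± 0.73, adjusted p = 0.311). The value of plate 1 was 14.5 CPM without its cells low in keratins. A Notch3 read was found in 18.8% of basal GFP+, 45.9% of intermediate GFP+, 87.2% of luminal GFP+ and 84.3% of luminal GFP- cells.

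Of the 17 Notch targets and regulators tested, 1 was higher in luminal GFP+ cells and none lower (median log2 difference 0.63). That gene was Ccnd1, the cyclin of entry into the cell cycle, at 21.8, 56.4 and 107.1 CPM on plates 1 to 3, highest on plate 4, and at 0 and 4.88 CPM on plates G and L, all below the luminal GFP+ sums of 195.2 to 893 CPM (3.99 ± 0.94, adjusted p = 0.0232); the call was lost in 5 of 19 alternatives, among them without plate 1 or plate 2. The repressor Hes1, the best known target, stood at 167.4, 187.4, 206.96, 133.6, 64.9 and 22.8 CPM, against 20.4 to 308 CPM, and did not separate the gates (0.21 ± 0.56, adjusted p = 0.951). Its share of cells with a read was 67% in basal GFP+, 70.2% in luminal GFP+, 54.9% in luminal GFP- and 41.2% in basal GFP- cells. These shares pool plates, and all basal GFP- cells are of batch 3, unlike most basal GFP+ cells. GFP and batch cannot be told apart in them. Hey1, a related repressor, had 59, 14.9, 74.5, 67.1, 52.9 and 6.1 CPM against 15.2 to 228.8 CPM. Heyl had 57.3 CPM on plate 1, which became 7.48 CPM without the cells low in keratins, and 0 CPM on plates 2, G and L. Myc, a growth regulator and Notch target in other tissues, stood at 636, 1050, 883, 1040, 420 and 174.6 CPM and was lower in luminal cells on 6 of 6 plates by -1.49 ± 0.40, which missed the threshold (adjusted p = 0.0524).

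Wnt pathway genes included 3 that were lower and 1 that was higher in luminal cells, of 18 tested. Lgr5, the R-spondin receptor that marks stem cells in several epithelia, stood at 357, 680, 374, 256.3, 55.7 and 66.7 CPM, against at most 21.1 CPM (-7.23 ± 1.64, adjusted p = 0.0176; lost without plate 2 or plate 3, and with Cre line and chase as units). The secreted Wnt inhibitor Sfrp1 stood at 93.7, 434, 440, 58.4 and 74.9 CPM on plates 1 to G, with plate L between plates 1 and 2, against at most 9.3 CPM (-7.11 ± 1.21, adjusted p = 0.00163), and Dkk3 was at -3.50 ± 0.93 (adjusted p = 0.0496, lost in 9 of 19 alternatives). Wnt7b, a ligand, ran the other way, from 0 CPM on 4 of the 6 plates to 22.4 to 217.1 CPM in luminal GFP+ sums (6.48 ± 1.60, adjusted p = 0.0315, lost in 8 of 19 alternatives).

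Luminal genes were low in the basal gate but not silent. Of the 4 luminal keratins, 3 were higher in luminal GFP+ cells. Krt18 (chromosome 15, 102028180 to 102032027) stood at 380, 118.99, 284.96, 130, 230.8 and 69.7 CPM in basal and 1660 to 6200 CPM in luminal GFP+ sums (4.21 ± 0.60, adjusted p = 0.000202), and Krt8 at 278.7, 268.2, 389, 249.2, 144.4 and 144.6 against 1260 to 3770 CPM (3.11 ± 0.44, adjusted p = 0.000202, edgeR). Neither pair of groups overlapped, yet a Krt8 read was found in 83% and a Krt18 read in 67.9% of basal GFP+ cells. Basal GFP- cells had them in 76.5% and 64.7% of cells. Krt19 differed by 4.56 ± 0.93 (adjusted p = 0.00775, lost with at most 1 Dcpp1 read).

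Of 18 luminal progenitor genes tested, 11 were higher and none lower in luminal GFP+ cells (median log2 difference 5.64). The receptor tyrosine kinase gene Kit stood at 11.5, 0.829, 0.47, 0.608, 0 and 0 CPM in basal and 224.97 to 2060 CPM in luminal GFP+ sums (9.02 ± 1.41, adjusted p = 0.000721). Retinaldehyde dehydrogenase Aldh1a3 and the water channel Aqp5 were at no more than 1.61 and 0.153 CPM in any basal GFP+ sum and differed by 10.61 ± 1.46 and 11.36 ± 1.31 (adjusted p = 0.000174 and 1.55e-05). Aldh1a3 and Aqp5 were near 0 on all 6 plates, and Kit was highest on plate 1, the 1-week plate. Others of the list were present before the luminal gate: the tight junction gene Cldn4 had 51, 2.49, 197.96, 5.02, 1180 and 28 CPM (4.86 ± 1.11, adjusted p = 0.0184, lost in 6 of 19 alternatives, among them without plate 1, 3 or 4), and Lcn2, an iron-binding defence protein, had 1090, 612, 1010, 1410, 1750 and 58.3 CPM in basal against 444 to 1880 CPM in luminal GFP+ sums (0.13 ± 0.57, adjusted p = 0.979). Per cell, basal GFP+ cells had a read of a median of 3 of the 20 listed progenitor genes (0 to 11), intermediate GFP+ cells 5, luminal GFP+ cells 13 and luminal GFP- cells 12.

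The list of junction and early luminal genes had 6 of 11 higher in luminal GFP+ cells. It shares Krt18, Krt19 and Cldn3 with the lists above. Claudin 3 (Cldn3) stood at 22.9, 0.829, 19.2, 19.6, 7.03 and 0.203 CPM against 539 to 1610 CPM (6.49 ± 0.92, adjusted p = 0.000202). Annexin A1 (Anxa1), a membrane-binding regulator of inflammation, started from a higher level in basal GFP+ sums, 96.7 to 974 CPM, and differed by 2.75 ± 0.47 (adjusted p = 0.0016). The 12 steepest rises by the naming rule were Aqp5, Aldh1a3, Cwh43, Atp10b, Gabrp, Rasal1, Rasef, Cnmd, Il1rn, Ltf, Cytip and Slc28a3. Gabrp, a GABA receptor subunit, had at most 0.0383 CPM in a basal GFP+ sum and 0.272 to 155.6 CPM in luminal GFP+ sums (12.57 ± 2.61, adjusted p = 0.0109), and Ltf, the iron-binding milk protein lactoferrin, at most 1.49 against 15.4 to 844 CPM (10.40 ± 2.13, adjusted p = 0.00791). Of the 10 hormone receptor genes tested, 10 lay above 0 with a median of 3.54, and 2 were called higher, the transcription factor gene Foxa1 (6.85 ± 1.58, adjusted p = 0.0208, lost in 4 of 19 alternatives, among them without plate 1, 2 or 3) and Cited1 (9.77 ± 1.88, adjusted p = 0.00488). Esr1, the oestrogen receptor, stood at 80.1, 61.8, 46.4, 37.9, 39.4 and 25 CPM in basal GFP+ sums and at a median of 45.5 CPM in luminal GFP+ sums (0.06 ± 0.90, adjusted p = 1).

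No gene of the cell cycle (20 tested), immediate early (19) or lipid synthesis (16) lists was called in this comparison. The cell cycle genes summed to 115.7, 78.8, 441, 370, 154.2 and 156.9 CPM in basal GFP+ sums against a median of 527 CPM in luminal GFP+ sums; 18 of the 20 had fitted differences above 0, with a median of 3.57. The immediate early genes, which tissue dissociation also induces, summed to 7840 to 32000 CPM in basal and 5630 to 26600 CPM in luminal GFP+ sums.

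Against native luminal cells, the luminal GFP- cells, 3.48% of the 20230 genes were called in the same fit over all sums. Of the genes tested, 0.979% were higher in luminal cells and 2.5% lower, with a median over all genes of -0.33. The basal GFP+ sums are shared with the comparison above, so the values are set side by side and not counted as separate evidence. Contractile genes had 11 of 15 lower, matrix genes 11 of 20, basal markers 6 of 7, and luminal keratins 4 of 4 higher. Krt17 passed here (-5.84 ± 1.49, adjusted p = 0.0241, lost without plate 2, 3, 4 or E and in the pairwise fit) and not against luminal GFP+ cells (-2.35 ± 1.26, adjusted p = 0.44); it stood at 2800, 3790, 2890, 4460, 2690 and 790 CPM in basal GFP+ sums and up to 1520 CPM in luminal GFP+ sums. The same held for Jag1 (-5.28 ± 0.98, adjusted p = 0.00192, lost in the pairwise fit) and for caldesmon (Cald1, -3.93 ± 0.55, adjusted p = 8.46e-05, against -0.80 ± 0.57, adjusted p = 0.603). The difference between luminal GFP+ and luminal GFP- cells was not tested.

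The intermediate gate, with EpCAM and CD49f between the others, is where cells in transition are sorted. Between intermediate GFP+ and basal GFP+ sums, which are again the same basal sums, 0 of 20230 genes passed in edgeR's quasi-likelihood test (0%); 866 (4.28%) had an unadjusted p under 0.05, and DESeq2 called 474. The median over all genes was 0.18. Contractile genes had a median of -1.30, with 13 of 15 below 0, and luminal keratins of 1.61, with 4 of 4 above 0. Luminal progenitor genes had a median of 1.89 (16 of 18 above 0), whereas basal keratins stood at 0.01 and Notch ligands and receptors at -0.29. Hormone receptor genes had a median of 2.40 (9 of 10 above 0). No marker of another cell type was called here, and salivary gland markers had a median of 3.39 (7 of 7 above 0), immune markers 2.39 (7 of 8 above 0), endothelial markers 2.24 (6 of 7 above 0) and pericyte markers -2.82 (4 of 5 below 0).

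Single genes of these lists are given by plate, and none of them passed in this comparison. Acta2 was at 90.7 to 1440 CPM in the 7 intermediate GFP+ sums and lower than in basal GFP+ cells on 6 of 6 plates (-2.34 ± 1.04), and Myl9 lower on 5 of 6 (-2.67 ± 0.88, adjusted p = 0.953). Krt14 was at 750 to 6650 CPM (0.06), and Apoe at 6790 to 21500 CPM, which spans the basal GFP+ range. On the luminal side, Krt18 (1.42 ± 0.52), Krt19 (1.81), Cldn3 (2.72) and Anxa1 (1.38) were higher on 6 of 6 plates, while Kit stayed at 0.458 to 33.7 CPM. The cell cycle genes had 19 of 20 above 0, with a median of 1.80.

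Keratin co-detection was scored cell by cell, as a read of Krt5 or Krt14 and a read of Krt8 or Krt18 after thinning to 100000 reads. It was found in 45 of 51 cells on plate 1 (88.2%; 95% Clopper-Pearson interval 76.1 to 95.6), 6 of 6 on plate 2 (54.1 to 100), 28 of 28 on plate 3 (87.7 to 100), 13 of 16 on plate 4 (54.4 to 96), 4 of 5 on plate G and 4 of 6 on plate L. Without the 10 cells that stood apart it was 45 of 46 on plate 1, 13 of 15 on plate 4, 4 of 4 on plate G and 3 of 3 on plate L. Pooled, the share was 89.3% in basal GFP+, 88.2% in basal GFP-, 84.4% in intermediate GFP+, 39.9% in luminal GFP+ and 37.3% in luminal GFP- cells. A basal-gate cell with both keratin pairs was thus the rule with and without GFP. With a threshold of 1 read, stray reads cannot be told apart from expression. A cell with both pairs is therefore not shown to be of mixed identity. Intervals cover counting error only, since reads of amplified cDNA are not independent molecules.

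Between the gates, the luminal GFP+ share was below the basal GFP+ share on 6 of 6 plates, by 48.1 percentage points on average (difference -48.1, SD 15.9, n = 6 plates, range -66.7 to -30; two-sided exact permutation test over plates, p = 0.03125, the smallest it can give). The intermediate share was lower on 4 and higher on 2 plates (-6.49, SD 19.6, n = 6 plates, exact permutation p = 0.5). Without thinning, the luminal difference was -20.4 points (exact permutation p = 0.125).

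Basal GFP+ and basal GFP- cells share a gate and differ in the transgene, but only plates G and L hold both. The difference and its spread were therefore estimated in the fit over all groups. Basal sums of the other plates enter it through the other gates on those plates. Of 20230 genes, 1 passed (0.00494%), Notch3; 894 (4.42%) had an unadjusted p under 0.05 and DESeq2 called 617. Notch3 stood at 7.47 and 23.6 CPM in basal GFP+ sums of plates G and L and at 0.107, 0 and 0.211 CPM in basal GFP- sums of plates E, G and L. The fit over all groups gave 8.98 ± 1.42 (adjusted p = 0.0182, edgeR, higher on 2 of 2 plates). The pairwise fit on plates G and L alone gave a log2 difference of 7.47. No GFP- sum reached the lowest GFP+ sum.

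The reads behind that value were few cells' reads. On plates G and L together, 3 of 11 GFP+ and 1 of 11 GFP- cells had a Notch3 read, a ratio of CPM of 144.8 (95% interval 39.7 to 1200, counting error only, with 2 reads behind the GFP- value). In each plate's basal GFP+ sum, 1 cell held between 65.6% and 100% of the Notch3 reads. On the thinned cells, 21 basal GFP+ cells (18.8%) and 0 of 17 basal GFP- cells had a read. The GFP+ share pools all plates and the GFP- share plates E, G and L, so GFP and batch cannot be told apart in them. The call was lost without plate 4, E, G or L, with Cre line and chase as units, with thinned cells, in the pairwise fit and without the cells high in sebaceous markers; the adjusted p then ran from 0.0834 to 1, and without those last cells plate L had 0 CPM of Notch3.

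Other Notch genes did not pass against basal GFP- cells. Hes1 had 64.9 and 22.8 CPM in GFP+ and 14.8 and 83.9 CPM in GFP- sums of plates G and L, so it went up on one plate and down on the other (0.12 ± 0.78). Hey1 had 52.9 and 6.1 against 0 and 3.38 CPM (2.16 ± 1.69, adjusted p = 1). Notch1 was at 0.64 ± 0.62. The basal markers had a median of -0.59, contractile genes of -0.54 and matrix genes of -0.72 (17 of 20 below 0), against 0.18 over all genes, while the 4 luminal keratins had a median of 1.90 with none passing. Among those keratins, Krt19 had 97.9 and 2.34 CPM against 7.12 and 1.06 CPM (2.73 ± 1.39). Cell cycle genes had a median of -2.16 with 19 of 20 below 0 and none called; they summed to 154.2 and 156.9 CPM in GFP+ and to 118.7 and 910 CPM in GFP- sums of plates G and L, and to 422 CPM in the GFP- sum of plate E.

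Cre lines were compared through the within-plate difference of luminal minus basal GFP+ cells. Of 14473 genes tested, 3 passed (0.0207%), 1 with a higher difference in K5Cre (0.00691%) and 2 with a lower one (0.0138%); 974 (6.73%) had an unadjusted p under 0.05. Krt79, a keratin of sebaceous ducts, had 197.7 and 485 CPM in basal GFP+ sums of plates G and L and at most 0.415 CPM on the SMACre plates. Its luminal GFP+ sums had 21.3 and 28.7 CPM on plates G and L. On SMACre plates 1 and 2 they had 101.2 and 47.3 CPM, and on plates 3 to 5 at most 0.816 CPM. Without the 4 cells high in sebaceous markers the basal GFP+ values of plates G and L were 0 and 3.99 CPM. The Krt79 call was then lost, as it was without plate L. Net1, an activator of RhoA, had 490 and 150.8 CPM in basal and 1.5 and 0.106 CPM in luminal GFP+ sums of K5Cre, where SMACre had 73.9 to 151.1 and 16.5 to 147.5 CPM (difference -7.64 ± 0.98, adjusted p = 0.0136). Itpripl2 had no read in either K5Cre basal GFP+ sum, 23.5 to 86.2 CPM in SMACre basal GFP+ sums and 85.5 and 85.2 CPM in K5Cre luminal GFP+ sums (adjusted p = 0.00865). Both calls were lost without plate 2, 3, G or L, and that of Itpripl2 also with thinned cells; without plate G, Cxcl1 and Itpr1 were called in their place.

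Levels in basal GFP+ cells by line are given as values, since batch and line cannot be told apart. Contractile genes summed to 7990, 8150, 8850 and 16100 CPM on the SMACre plates and to 3540 and 1340 CPM on the K5Cre plates, and the basal GFP- sums of plates G and L had 6730 and 3460 CPM. Lipid synthesis genes summed to 444 to 835 CPM in SMACre and to 3340 and 8680 CPM in K5Cre sums, which became 911 and 671 CPM without the cells high in sebaceous markers. For the contractile genes the same step left plate L at 2940 CPM.

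Chase was followed in the 4 SMACre sums at 1, 3, 3 and 4 weeks. Of 8563 genes tested for a slope, 0 passed (0%) in edgeR's quasi-likelihood test, and 1.68% had an unadjusted p under 0.05; DESeq2 was not run on this slope. Basal markers summed to 11300 CPM at 1 week, 14900 and 12700 CPM at 3 weeks and 17700 CPM at 4 weeks. Cnn1 had the slope 0.54 ± 0.19 log2 units a week (unadjusted p = 0.02, adjusted p = 1) and Ccnd1 0.83 ± 0.30. With a single plate at 1 week and another at 4 weeks, plate and time cannot be told apart.

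Markers of other cell types were low in most basal GFP+ sums. Endothelial markers summed to 649 CPM on plate 1 and to at most 23.7 CPM on the others, and plate 1 fell to 2.61 CPM without its cells low in keratins. Pericyte markers summed to 123.5 to 326 CPM (91 CPM on plate 1 without those cells) against 0.201 to 73.6 CPM in luminal GFP+ sums, with 14 basal GFP+ cells (12.5%) over 500 CPM. Fibroblast markers summed to 42.2 to 145.5 CPM, fat cell markers to 0.829 to 332 CPM, immune markers to 0 to 38.9 CPM and salivary gland markers to 0 to 68.4 CPM. In luminal GFP+ sums the salivary gland markers ran from 0 to 40600 CPM with a median of 26.7, and 9 luminal GFP+ cells (4.79%) had over 500 CPM of them, the highest 483000 CPM. Sebaceous and hair follicle markers summed to 161.3 to 294.8 CPM in SMACre and 698 and 1770 CPM in K5Cre sums. Of the listed genes, 7 of 7 endothelial, 7 of 8 fibroblast, 7 of 8 pericyte, 5 of 8 immune, 4 of 7 fat cell and 9 of 12 sebaceous and hair follicle markers had a read in at least 1 basal GFP+ sum; those at 0 included Dpt, Kcnj8, Ptprc, Adipoq and Awat1. Between luminal and basal GFP+ cells, 2 of 7 salivary markers, Pip and Smr3a, were called higher (median 7.20, 7 of 7 above 0) and 1 of 7 fibroblast markers lower, and none of 7 endothelial, 5 pericyte, 8 immune, 2 fat cell or 10 sebaceous and hair follicle markers was called. The median was 0.09 for immune, -3.48 for fat cell and -0.19 for sebaceous and hair follicle markers. Contractile genes and Notch3 are also expressed by pericytes; without the 6 cells low in keratins the luminal against basal GFP+ comparison gave 1.8% of genes, and the part of the other cells with pericyte reads, or of luminal cells with salivary reads, was not tested.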

How the data were processed

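Single cells of basal, intermediate and luminal gates, GFP+ or GFP-, were measured by Smart-seq2 with Nextera XT libraries on a HiSeq 4000 (single-end 50 bp in batches 1 and 2, paired-end in batch 3). The authors deposited unnormalized read counts per Ensembl gene and cell, made per their processing notes with Trim Galore 0.6.5, STAR 2.7.7a and HTSeq 0.13.5 on GRCm38/mm10. The files hold 840 cells. The repeat run of the 6-week plate was left out, which left 744. HTSeq summary rows and spike-ins were set apart, the spike-ins being 8.31%, 6.64% and 0.214% of reads in batches 1, 2 and 3. Of 39154 genes, 37893 matched a symbol.

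Kept cells had more than 100000 counts and 1400 genes, a mitochondrial share under 10%, 2 or more Epcam reads and no more than 10 of Dcpp1, a salivary gland gene. For basal GFP+ cells these steps left 138, 137, 137, 120 and 112 of 147, beside 244 intermediate GFP+ and 188 luminal GFP+ cells. Epcam, Dcpp1 and the sorted proteins are therefore not findings. Doublets had been gated out and single cells index-sorted, and no doublet caller was run. Gates and Cre lines come from the sample labels, plates and chase from the annotation.

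Counts were summed over at least 3 cells per plate, gate and GFP. One edgeR 4.0.16 quasi-likelihood fit (R 4.3.3; filterByExpr, TMM) over all groups had plate as a block, because a plate's groups come from the same mice per the annotation. The Cre line interaction used GFP+ groups and the chase slope the 4 SMACre basal GFP+ sums without a block. P-values were adjusted over all genes tested by the Benjamini-Hochberg method, with a threshold of 0.05. TPM divide by the length of all exons of a gene. Cells were thinned once to 100000 reads for shares of cells with a read. Named genes are all members of 24 lists, the 12 largest rises and 12 largest falls per gate comparison among called genes that went the same way on every plate and had a mean of at least 20 CPM in the higher group (Gm and Rik models left out; not all genes that met these rules are reported here), and the 15 highest non-mitochondrial, non-ribosomal genes of basal GFP+ sums. The cells and lists were chosen with earlier results of these data known. On simulated counts of the luminal against basal GFP+ comparison with the real spread (18865 genes), 22% of genes changed by a log2 of 2 and 83% of those changed by a log2 of 4 were recovered, with 1 false call. For the Cre line interaction these shares were 0% and 0%, with 0 false calls. For the chase slope, 6.52% and 68.6% of the changed genes tested were recovered at the size settings of 2 and 4, with 5 false calls. Those settings are not read as a log2 change of 2 or 4 over the whole chase. Alternatives were DESeq2 1.42.0, its size factors, other filters and units, no block, pairwise fits and leaving out each plate. Leaving out cells low in keratins or high in sebaceous markers was added after the data were seen.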

Additional observations from a re-analysis of the deposited data

Results flagged for a closer look

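A value stood apart from the other 5 plates by Dixon's criterion on log2(CPM + 1) in 12 of 83 gene and list levels of basal GFP+ cells examined. The criterion's rate of about 1 in 20 assumes independent values. Several of these levels share genes, and a gene with reads on 1 plate alone meets the criterion by construction. No excess over chance is therefore read from the count. On plate L, the K5Cre plate whose chase is named in 2 ways, the basal keratins Krt5 (1.12 CPM), Krt14 (1600 CPM) and Krt17 (790 CPM) and the contractile genes Tagln (1.73 CPM) and Lmod1 (1.02 CPM) were the lowest of the 6 sums. The summed basal keratins (2470 CPM) and the summed chemokines and defence genes (1430 CPM) were lowest there too; without the 3 cells high in sebaceous markers they were 3450 and 3140 CPM. Mfng, which modifies Notch receptors with sugars, had 4.68 CPM on plate L and at most 0.293 CPM elsewhere.

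On plate 1, the SMACre plate of 1 week, 4 Notch genes were highest. The ligands Dll3 (0.192 CPM) and Dll4 (26.2 CPM) and the target Hes5 (0.0383 CPM) had no read on any other plate. The plate 1 sum held more cells and more counts than any other basal GFP+ sum. Levels as low as those of Dll3 and Hes5 could go unseen in the smaller sums. No difference between plates is therefore read from Dll3 and Hes5. The target Hey2 had 4.4 CPM, and 0.0869 CPM without the cells low in keratins, which also took Dll4 to 0 CPM.

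The luminal minus basal GFP+ difference was tested between the Cre lines in an interaction term. In log2, K5Cre minus SMACre, it was -7.64 for Net1 (adjusted p = 0.0136), -11.81 for Krt79 (adjusted p = 0.00108) and 15.19 for Itpripl2 (adjusted p = 0.00865; edgeR). Each line's plates with both groups lie in separate batches, so line and batch cannot be told apart.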

How the results depend on the processing

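The self-test and the spread between 6 basal GFP+ sums limit these results. On simulated counts of the luminal against basal GFP+ comparison, 22% of log2 2 and 83% of log2 4 changes were recovered. For the Cre line interaction 0% were recovered at either size, and the chase slope also missed many. Comparisons with intermediate GFP+, luminal GFP- and basal GFP- cells were not simulated. Sums of 5 and 6 cells carry plates 2, G and L, and 1 plate stands for each of the 1-week and 4-week times. No result changed direction in the alternatives run. Of the named genes called, 43 of 88 were called in every alternative against luminal GFP+ cells. Causes of the moves below were not tested. Shares are of the genes tested in the reported fit.

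Against luminal GFP+ cells, the share of genes called went from 1.66% to 10.2% with DESeq2 (2071 genes, 333 of the 335 among them), 0.717% with at most 1 Dcpp1 read, 2.93% with thinned cells and 2.93% when low counts were kept, and 1.1% in the pairwise fit. Leaving out a plate gave 0.756% to 1.51% (0.756% without plate 2, 0.87% without plate 3, 1.1% without plate 4). Without the replicate block of plate the shares were 2.24% against luminal GFP+, 0% against intermediate GFP+, 5.69% against luminal GFP- and 0.00494% against basal GFP- cells. Against luminal GFP- cells, 3.48% became 2.15% with Cre line and chase as units, 14.8% with DESeq2, 2% with at most 1 Dcpp1 read and 0.648% in the pairwise fit, and 1.94% to 2.92% without a plate (1.94% without plate 4, 2.07% without plate 2).

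Against intermediate GFP+ cells, 0% became 2.34% with DESeq2, 0.114% with low counts kept, 0.00494% with Cre line and chase as units (Capn8), 0.00989% without the cells low in keratins (Aqp1 and Mlph) and 0% to 0.0247% without a plate (5 genes without plate G, among them Foxa1 and Aqp5; 1 each without plates 1 and L). Against basal GFP- cells, 0.00494% became 3.05% with DESeq2, 0.00989% with at least 5 cells per sum (Notch3 and Cep290), and 0% with Cre line and chase as units, thinned cells, the pairwise fit or without the cells high in sebaceous markers; without a plate it was 0% (plates 4, E, G and L) to 0.00989% (plate 1). For the Cre line difference, 0.0207% became 1.04% with low counts kept and 0% to 0.0276% without a plate (0% without plate L, 0.00691% without plate 2 or plate 3). For chase, 0% became 0.128% with low counts kept, 0.035% with sequencing batch as a term (Plet1, Cldn4 and Numbl) and 0% to 0.0117% without a plate (Fabp4, without plate 4). Genes in brackets were named after their values were seen.

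The luminal minus basal keratin share of -48.1 points became -20.4 without thinning and -48.5 with at most 1 Dcpp1 read (exact permutation p = 0.0625, the smallest 5 plates allow), and -51.7 to -44.4 without a plate.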

Other observations

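The Epcam minimum removed 17 sorted basal GFP+ cells. Of these, the 12 from plate 1 were not empty of basal transcripts. On plate 1 the 12 cells held 5560 CPM of Acta2, with a read in 11 of them, and 1150 CPM of Krt14, with a read in 9. They also held 1740 CPM of endothelial markers, 544 CPM of pericyte markers and 2000 CPM of fat cell markers, the last from Fabp4, which endothelial cells express too. The filter therefore removed cells with basal as well as other reads from the 1-week plate.

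Thbs1, which encodes the matrix glycoprotein thrombospondin 1, and Adamts1, a matrix protease gene, were among the genes of the highest level in basal GFP+ cells. Thbs1 had 2370, 2020, 3350, 2760, 11000 and 652 CPM and did not separate them from luminal GFP+ cells (-0.09 ± 0.73, adjusted p = 1, edgeR). Against luminal GFP- cells it was lower on 6 of 6 plates (-2.31 ± 0.71) and missed the threshold (adjusted p = 0.0724).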
